A study of Rattus norvegicus with 6 samples.

Results

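The endothelial junction genes considered here are 9 genes whose proteins join neighbouring cells of the vessel lining: Cdh5, Cldn5, Ocln, Tjp1, Esam, Jam2, Jam3, Pecam1 and Gja4. A gene was represented by a probe set that names no other gene, taking the one with the highest mean across the 6 arrays. Such a probe set was found for 7 of the 9, out of 18166 genes represented in this way, and each of the 7 had 1 probe set. Jam2 and Pecam1 had none and were not analysed here.

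RNA of cerebral arteries from male rats was hybridised to 6 arrays. In 3 of them the arteries came from animals with a subarachnoid haemorrhage (SAH), bleeding over the surface of the brain, taken 6 hours after it (arrays 1, 4 and 5), and in 3 from sham-operated animals (arrays 6, 7 and 8). The labels give neither strain nor age of the animals, no time for the sham arrays, and no word on how the bleed was made. They do not say that each sample came from a separate animal, so the spread behind each p-value is that between these samples and may be technical.

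The lining of an artery is held together by several kinds of contact. Adherens junctions are built on the cadherin Cdh5 (VE-cadherin), which binds its like on the next cell and is tied to actin through catenins. Tight junctions, which seal the gap between cells and are especially dense in brain vessels, hold claudins and occludin in the membrane and the scaffold Tjp1 (ZO-1) beneath it. Immunoglobulin-like proteins such as Esam, the JAM family and Pecam1 sit at the same borders and take part in leukocyte passage, and gap junctions made of connexins such as Gja4 pass ions and small molecules from cell to cell. Whether the wall's junction transcripts differ 6 hours after a bleed is a question the comparison can address at the level of RNA only.

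The deposited values are log2 expression values, and array medians lay between 7.31 and 7.37. Of 18 measured genes marking endothelium, 17 exceeded the array median on every array, as did all 6 smooth muscle markers, so RNA of both cell types was present. All 8 leptomeningeal fibroblast markers and all 4 measured astrocyte markers also exceeded the array median on every array, so the samples were not endothelium and smooth muscle alone. All 7 junction genes exceeded it on all 6 arrays. Neutrophil markers separated arrays within both groups. The mean of 8 such markers stood at 7.01, 7.14 and 9.72 in sham arrays 6, 7 and 8 and at 8.99, 9.13 and 10.38 in SAH arrays 1, 4 and 5. Sham array 8 was thus above SAH arrays 1 and 4.

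The junction genes differed in both directions. Cdh5 and Gja4 read higher after SAH, Jam3 lower, in each case without overlap between the groups, and Cldn5 had a lower mean with overlap of 1 array on each side. Ocln and Tjp1 showed differences under 0.1 log2 units, and Esam was high in only 2 of 3 SAH arrays. None of the 7 passed limma's test at an adjusted p under 0.05, where 1.29% of all genes did, and 4 of the 7 had an unadjusted p under 0.05, where 18.6% of all genes did. In single directions, 2 of the 7 had an unadjusted p under 0.05 with a higher value (8.16% of all genes) and 2 with a lower one (10.5%). The groups did not overlap for 3 of the 7, against 26.8% of all genes, with 2 higher (11.4% of genes) and 1 lower (15.4%). The median difference over the 7 was -0.05, beside -0.01 over all genes. In such bulk RNA fewer cells of a type and less RNA per cell cannot be told apart.

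**Figure D1:**
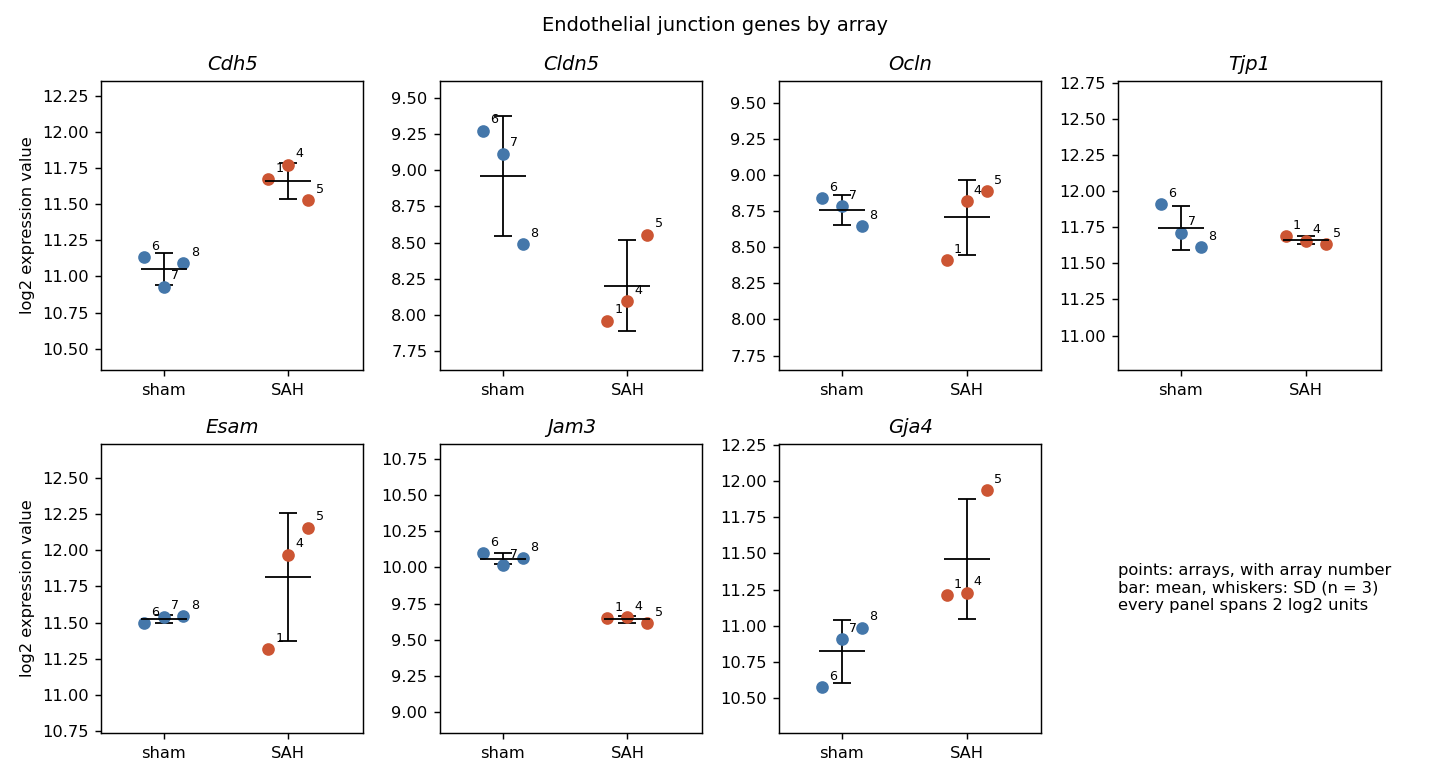
Log2 expression values of the 7 measured junction genes on each array, with the array number beside each point, the group mean as a bar and the SD as whiskers (n = 3 per group). Every panel spans the same range of log2 units. Cdh5, Jam3 and Gja4 show groups that do not overlap, and SAH array 1 lies apart from SAH arrays 4 and 5 for Esam.

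Cdh5, the cadherin on which endothelial adherens junctions are built (probe set 17731360), read 11.14, 10.93 and 11.09 in sham arrays 6, 7 and 8 and 11.67, 11.77 and 11.53 in SAH arrays 1, 4 and 5. Every SAH array lay above every sham array, and the SAH arrays stood 0.47 to 0.72 above the sham mean. The group means were 11.05 ± 0.11 and 11.66 ± 0.12 (SD, n = 3 each), a 1.52-fold higher value after SAH. The log2 difference was 0.61 ± 0.11 (SE; 95% interval 0.34 to 0.87; limma adjusted p = 0.0776). The gene ranked 373 of 18166 genes by its p. It passed the threshold when only probe sets above the array median on at least 3 arrays were tested (adjusted p = 0.0299, where 5.93% of genes passed) and with the trend and robust options of eBayes (0.0419, where 2% passed), and it was the 1 junction gene under 0.10 with all 6 arrays and default settings (2.92% of genes). Its adjusted p ran from 0.0299 to 0.286 over all settings. The difference was 0.54 to 0.67 with each array left out in turn.

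Partners of Cdh5 at the adherens junction were measured beside it. None of the 12 measured genes of this list passed, and 1 had an unadjusted p under 0.05 (18.6% of all genes did). The groups did not overlap for 6 of the 12 (26.8% of all genes), with 1 higher after SAH (11.4% of genes) and 5 lower (15.4%). The differences ran from -0.37 to 0.24 with a median of -0.07. Afdn, which encodes afadin, a linker between nectins and actin, had the smallest p: it read 9.49, 9.53 and 9.39 in the sham arrays and 9.16, 9.22 and 8.94 in the SAH arrays, a difference of -0.37 ± 0.11 (SE; limma adjusted p = 0.212). Nectin2, a nectin, differed by 0.24 ± 0.10 (adjusted p = 0.348), and Jup, plakoglobin, a catenin that binds cadherin tails, by -0.20 ± 0.10 (adjusted p = 0.449). The other catenin genes Ctnnb1, Ctnna1 and Ctnnd1 differed by -0.14, -0.11 and -0.02.

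Cldn5, the principal claudin of brain endothelium (probe set 17671142), read 9.28, 9.12 and 8.49 in sham arrays 6, 7 and 8 and 7.96, 8.09 and 8.56 in SAH arrays 1, 4 and 5. SAH array 5 lay just above sham array 8, so the groups overlapped by this pair, while the other 2 arrays of each group stood well apart. The means were 8.96 ± 0.42 and 8.20 ± 0.31 (SD, n = 3 each), and the mean log2 difference of -0.76 was 0.592 as a ratio of SAH to sham. Its SE was 0.24 (95% interval -1.33 to -0.18; limma adjusted p = 0.230). The pair that overlapped were the 2 arrays with the highest neutrophil markers. Within the groups they went opposite ways: sham array 8 had the lowest Cldn5 value of its group and SAH array 5 the highest of its group. With each array left out in turn the difference ran from -0.99 (sham array 8 removed) to -0.60 (sham array 6 removed). Its 95% interval included 0 when either SAH array 1 or 4, or either sham array 6 or 7, was the one removed. A fit with neutrophil markers as a covariate, added after seeing the data, gave -0.55 ± 0.30 (adjusted p = 0.658), and over all settings the adjusted p ran from 0.119 to 0.658. The part of neutrophil RNA in these values was not tested further.

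Cldn5 and Gja4 had the lowest and the highest difference of the 7 genes, and their promoter windows are shown for that reason. RefSeq's promoter table for the GRCr8 assembly held windows for 5 of the 9 genes (Cldn5, Ocln, Tjp1, Jam2 and Gja4), each covering 250 bases before to 50 bases after a start. The Cldn5 window lies at chr11:95718549-95718848 and that of Gja4 at chr5:144920275-144920574, both on the minus strand and written 5′ to 3′. Capitals mark matches on either strand to 5 motifs: CCGGAA for ETS factors, ACAAAG for SOX factors, the shorter SOX motif ACAAT, for KLF factors CACCC, and TTCNNNGAA for STAT factors. None of these motifs contains another.
Cldn5: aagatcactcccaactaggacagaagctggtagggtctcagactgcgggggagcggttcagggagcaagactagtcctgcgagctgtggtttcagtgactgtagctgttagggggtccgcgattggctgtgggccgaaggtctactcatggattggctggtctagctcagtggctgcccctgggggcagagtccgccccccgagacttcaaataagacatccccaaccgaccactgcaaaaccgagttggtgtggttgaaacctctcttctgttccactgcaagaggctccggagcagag
Gja4: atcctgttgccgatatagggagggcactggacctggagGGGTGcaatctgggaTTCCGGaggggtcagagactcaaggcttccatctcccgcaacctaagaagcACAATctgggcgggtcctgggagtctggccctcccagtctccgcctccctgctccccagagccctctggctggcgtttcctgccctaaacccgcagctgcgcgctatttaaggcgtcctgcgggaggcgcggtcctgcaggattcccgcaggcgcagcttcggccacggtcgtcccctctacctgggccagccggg
The Gja4 window held 1 match to the ETS motif, 1 to the shorter SOX motif and 1 to the KLF motif, and the Cldn5 window held no match to any of the 5 motifs. Over all 33469 windows of this length, 14.95% held the ETS motif, 18.78% the longer and 33.67% the shorter SOX motif, 54.87% the KLF motif and 8.87% the STAT motif. The Ocln window held 4 matches to the KLF motif. The Tjp1 window held 2 matches to the longer and 2 to the shorter SOX motif. The Jam2 window held 1 match to the longer SOX motif and 2 to the KLF motif. The Tjp1 and Jam2 windows lie inside the annotated span of the gene. GC content was 57.7% for Cldn5 and 65.3% for Gja4, against a median of 51.7% over all windows.

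Ocln, which encodes occludin, a membrane protein of tight junction strands (probe set 17744817), read 8.84, 8.79 and 8.64 in the sham arrays and 8.41, 8.82 and 8.89 in SAH arrays 1, 4 and 5. SAH array 1 was the lowest of the 6 and SAH array 5 the highest. The log2 difference was -0.05 ± 0.15 (SE; 95% interval -0.40 to 0.30; limma adjusted p = 0.922), and without SAH array 1 it was 0.10, on the other side of 0.

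Tjp1, the scaffold ZO-1 that links claudins and JAM proteins to actin (probe set 17633748), read 11.91, 11.71 and 11.61 in the sham arrays and 11.69, 11.66 and 11.63 in the SAH arrays. The SAH arrays lay within the range of the sham arrays. The difference was -0.09 ± 0.11 (SE; 95% interval -0.34 to 0.17; limma adjusted p = 0.784), and with the neutrophil covariate it was 0.02.

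Among 12 other measured genes of tight junctions none passed. The differences ran from -0.70 to 0.46, and the median difference was -0.17. With an unadjusted p under 0.05, 2 were higher after SAH (8.16% of all genes) and 3 lower (10.5%). The groups did not overlap for 4 of the 12 (26.8% of all genes). Lsr, which encodes angulin-1 of the contacts where 3 cells meet, had the smallest p, with 10.22, 10.18 and 10.11 in the sham arrays and 9.90, 9.72 and 9.66 in the SAH arrays. Its difference was -0.41 ± 0.10 (SE; limma adjusted p = 0.152) and the groups did not overlap. Cgnl1, which encodes paracingulin, differed by -0.52 ± 0.18 (adjusted p = 0.262) and Tjp3, the scaffold ZO-3, by 0.46 ± 0.16 (adjusted p = 0.260). For Tjp3 the SAH arrays were all above the sham arrays, at 7.76 to 8.36 against no more than 7.66. F11r, which encodes JAM-A, differed by -0.20 ± 0.13 (adjusted p = 0.546). Of the claudins in this list, Cldn1 differed by -0.70 ± 0.27 (adjusted p = 0.305) and Cldn11 by -0.69 ± 0.33 (adjusted p = 0.411), both with overlap. Cldn3 and Cldn12 differed by 0.10 and 0.08.

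Esam, an immunoglobulin-like adhesion protein of endothelial tight junctions that is also found on platelets (probe set 17843187), read 11.49, 11.54 and 11.54 in sham arrays 6, 7 and 8 and 11.32, 11.97 and 12.16 in SAH arrays 1, 4 and 5. SAH array 1 lay below all sham arrays, and SAH arrays 4 and 5 lay above them. The SD was 0.03 in the sham group and 0.44 in the SAH group (n = 3 each). The difference was 0.29 ± 0.21 (SE; limma adjusted p = 0.604), and it moved with single arrays. Without SAH array 1 it was 0.54 ± 0.11 (adjusted p = 0.0729), and without SAH array 5 it was 0.12 ± 0.20 (adjusted p = 0.899). It was 0.14 ± 0.27 with the neutrophil covariate (adjusted p = 0.932). The mean of 5 platelet markers stood at -0.01 in SAH array 1, counted from the sham mean, and at 0.25 and 0.48 in SAH arrays 4 and 5. This is the order of Esam, but it was not particular to platelet markers. The means of endothelial, neutrophil, neuron, myelinating cell and erythroid markers had it too, the last at 0.01, 0.32 and 0.48. The part of any of these cells in the Esam values was not tested. Among the platelet markers Itga2b, the platelet integrin chain, read 7.27, 8.17 and 8.18 in SAH arrays 1, 4 and 5. In the sham arrays it read at most 7.11. Pf4, Gp9, Ppbp and Treml1 overlapped between the groups, and Ppbp read 6.79 in SAH array 4, below the sham arrays (6.89 to 6.95).

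Jam3, which encodes JAM-C, a junctional adhesion molecule of endothelium and other wall cells (probe set 17850719), had small spreads in both groups. It read 10.10, 10.02 and 10.07 in the sham arrays and 9.65, 9.66 and 9.61 in the SAH arrays. The gap between the groups was many times the spread within either, with an SD of 0.04 in sham and 0.02 in SAH arrays (n = 3 each). The log2 difference was -0.42 ± 0.09 (SE; 95% interval -0.63 to -0.21), a 1.34-fold lower value after SAH (limma adjusted p = 0.102). limma draws the variance of each gene towards that of all genes, so its SE is wider than these SDs alone would give. Jam3 passed the threshold when dim probe sets were left out (adjusted p = 0.0374, where 5.93% of genes passed), and its adjusted p ran from 0.0374 to 0.376 over all settings. Its difference kept within -0.44 and -0.40 with each array left out and was -0.41 with the neutrophil covariate. The mean of 6 smooth muscle markers, counted from the sham mean, lay at -0.36, -0.34 and -0.46 in SAH arrays 1, 4 and 5 and at no less than -0.12 in the sham arrays. Smtn, which encodes smoothelin, was the 1 of them that passed, at -1.18, and the other 5 differed by -0.40 to -0.11. Without Smtn, a choice made after seeing the data, the mean lay at -0.23, -0.17 and -0.28 in SAH arrays 1, 4 and 5 and at no less than -0.11 in the sham arrays. Smooth muscle was not alone in this. The means of pericyte, leptomeningeal fibroblast and venous endothelial markers differed by -0.26, -0.26 and -0.29, and that of 18 genes marking endothelium by -0.22. The pericyte markers were uneven: their median difference was -0.06, Abcc9 was lowest at -1.08, and 2 of the 7 were above 0. The part of RNA of any of these cells in the Jam3 values was not tested.

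Other surface proteins of the endothelial border with a role in leukocyte passage gave the only call among the related lists. Cd47, a ligand for integrins and for the receptor SIRPα that is present on most cells, rose 1.69-fold (0.963% of all genes were called higher). It read 10.97, 11.17 and 11.10 in the sham arrays and 11.69, 11.91 and 11.91 in the SAH arrays (difference 0.76 ± 0.11 SE; limma adjusted p = 0.0416). This call ended with any array but SAH array 1 left out: the adjusted p was then 0.148 (SAH array 4 removed), 0.147 (SAH array 5), 0.214 (sham array 6), 0.152 (sham array 7) or 0.122 (sham array 8). It was 0.223 with the neutrophil covariate. Icam2, a ligand for leukocyte integrins, read 8.42, 8.53 and 8.34 in the sham arrays and 7.98, 8.00 and 8.07 in the SAH arrays (-0.41 ± 0.10 SE; adjusted p = 0.130), and Cd99l2, a relative of the diapedesis protein CD99, differed by -0.43 ± 0.13 (adjusted p = 0.195). Neither passed, and both had groups without overlap. With Cd47 that made 3 of the 4 measured genes of this list, where 26.8% of all genes had none. Mcam, of the immunoglobulin family, differed by -0.09 ± 0.10.

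Gja4, a connexin that couples endothelial cells to each other and to smooth muscle (probe set 17810714), read 10.58, 10.91 and 10.99 in sham arrays 6, 7 and 8 and 11.21, 11.23 and 11.94 in SAH arrays 1, 4 and 5. All SAH arrays lay above all sham arrays, and SAH array 5 stood 0.71 above the next. The means were 10.82 ± 0.22 and 11.46 ± 0.42 (SD, n = 3 each), a 1.55-fold higher value after SAH. The difference was 0.64 ± 0.22 (SE; 95% interval 0.11 to 1.16; limma adjusted p = 0.260). Without SAH array 5, the array with the highest neutrophil markers, it was 0.40, without sham array 6 it was 0.51, and without any one of the other arrays it was 0.68 to 0.76. With the neutrophil covariate it was 0.35 ± 0.24, and the part of neutrophil RNA in this difference was not tested further. The 95% interval included 0 without sham array 6 (-0.09 to 1.11) and with the covariate (-0.23 to 0.92). Over all settings the adjusted p ran from 0.140 to 0.742.

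None of the 3 other measured connexin and pannexin genes of the wall passed. Gja5, another connexin of arterial endothelium, read 9.62, 10.05 and 9.64 in the sham arrays and 9.92, 9.88 and 10.08 in the SAH arrays, with overlap (0.19 ± 0.14 SE; limma adjusted p = 0.616). Gja1, a connexin of many cell types, differed by -0.16 ± 0.30 (adjusted p = 0.867) and Panx1, a pannexin channel, by 0.18 ± 0.13 (adjusted p = 0.597). The interval for Gja5, -0.15 to 0.53, overlaps that for Gja4, and the difference between the 2 genes was not tested.

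**Figure D2:**
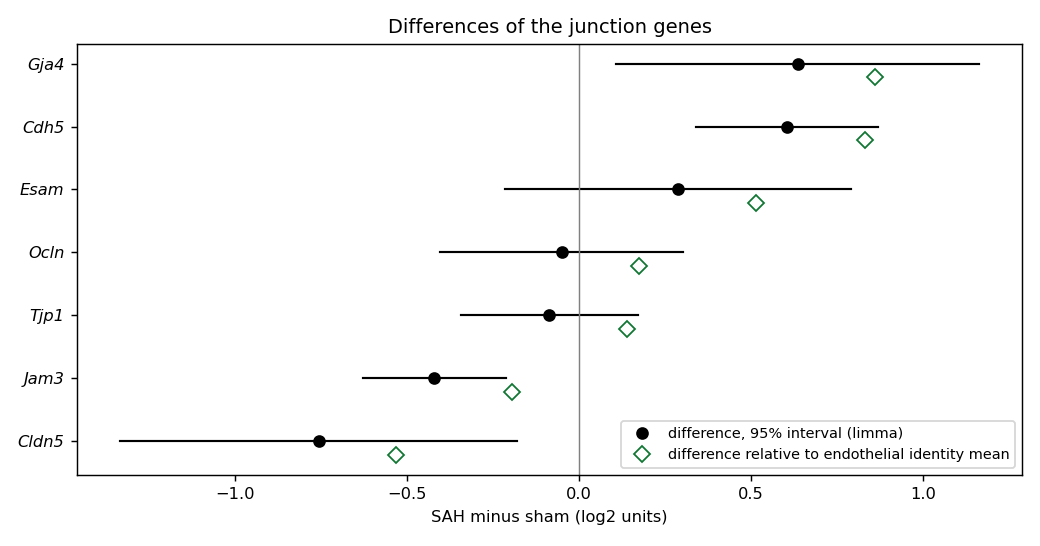
Log2 difference, SAH minus sham, of each junction gene with its 95% interval from limma (filled circles and lines), and the same difference after the mean of 18 endothelial identity genes on the same array was subtracted (open diamonds). Cdh5 and Gja4 lie above 0 and Jam3 and Cldn5 below it by either measure.

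The endothelium as a whole was described by 18 measured identity genes, none of them a junction gene above. None passed. With an unadjusted p under 0.05, 5 were lower after SAH (10.5% of all genes were) and none was higher (8.16% of all genes). The groups did not overlap for 8 of the 18 (26.8% of all genes), with 7 lower (15.4% of genes) and 1 higher (11.4%). Of the 18 differences 14 were below 0, and the median was -0.24, beside -0.01 over all genes. Cd34, a surface sialomucin, read 10.40, 10.03 and 10.0 in the sham arrays and 9.10, 9.36 and 9.53 in the SAH arrays (-0.81 ± 0.16 SE; limma adjusted p = 0.0908). It passed with dim probe sets left out (0.0375, where 5.93% of genes passed), and its adjusted p reached 0.359 with the neutrophil covariate. Myct1 differed by -0.59 ± 0.17 (adjusted p = 0.188) and Nos3, endothelial nitric oxide synthase, by -0.39 ± 0.11 (adjusted p = 0.189). Myct1 was dim, below the array median on every array at 6.19 to 7.20. Vwf, which encodes von Willebrand factor, differed by -0.29 ± 0.12, Flt1, a VEGF receptor, by 0.10 ± 0.13 and Erg, an endothelial ETS factor, by 0.04 ± 0.12.

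Against this background the mean of the identity genes stood at 0.03, 0.11 and -0.15 in sham arrays 6, 7 and 8, counted from the sham mean, and at -0.31, -0.20 and -0.17 in SAH arrays 1, 4 and 5. Each junction gene was therefore also set against that mean on the same array. Measured so, Cdh5 was higher by 0.83 and Gja4 by 0.86, without overlap between the groups (exact two-sided permutation p = 0.1 for each, the smallest that 3 against 3 arrays allow). Esam differed by 0.51 (exact p = 0.2), Ocln by 0.17 and Tjp1 by 0.14 (exact p = 0.3 for each). Cldn5 differed by -0.53 and Jam3 by -0.19 (exact p = 0.2 for each), and the groups overlapped for both. This design cannot reach a p under 0.05, and 7 such comparisons were made. For Jam3 the absence of overlap was thus limited to the values without this reference.

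**Figure D3:**
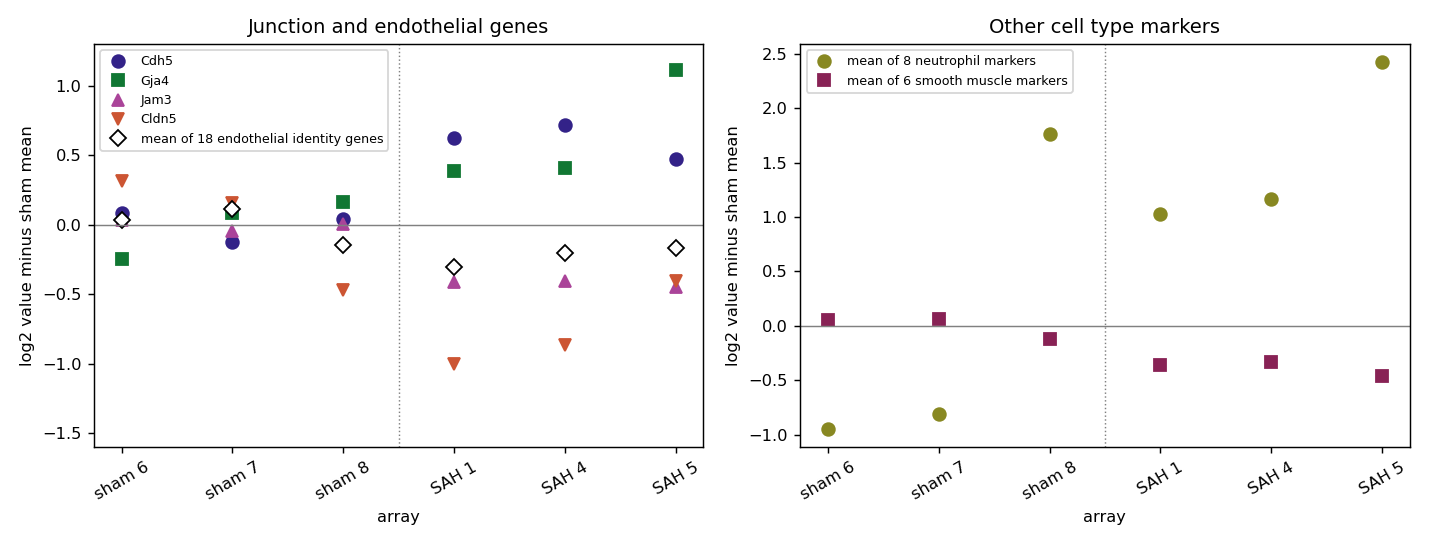
Log2 values of Cdh5, Gja4, Jam3 and Cldn5 and the mean of 18 endothelial identity genes on each array, each minus its own sham mean (left), and the means of 8 neutrophil and 6 smooth muscle markers drawn the same way (right). Sham array 8 and SAH array 5 carry the highest neutrophil values, and on these arrays Cldn5 reads closest to the other group, lowest among the sham and highest among the SAH arrays.

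Cdh5 and Cldn5, both held largely to endothelium in vessels, went opposite ways on every SAH array. The difference between them, each against its own sham mean, was -0.23, -0.28 and 0.51 in sham arrays 6, 7 and 8 and 1.62, 1.59 and 0.88 in SAH arrays 1, 4 and 5. The groups did not overlap. The SAH mean of 1.36 is a 2.57-fold shift of Cdh5 relative to Cldn5. This pair was chosen after its values were seen, so no test is given.

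The mean profile of the 7 genes, each centred on its own mean, was 0.04, -0.00 and -0.09 in sham arrays 6, 7 and 8 and -0.16, 0.02 and 0.18 in SAH arrays 1, 4 and 5. It put SAH arrays 1 and 5 at the ends and did not separate the groups. The 5 genes most like it over the 6 arrays, by Pearson correlation, were Wdr62 (0.99), Or8c16c (0.98), Snrnp35 (0.98), Marco (0.98) and Rps20l4 (0.97), and the largest group difference among them was 0.12, for Or8c16c. Or8c16c, Snrnp35 and Marco read below the array median on every array, Or8c16c far below it at 2.85 to 3.54. Among 59 genes of the related lists, those most like Cldn5 were Tek, the angiopoietin receptor (0.96), Vwf (0.96) and Marveld2, tricellulin (0.92). Tek, like Cldn5, was lower in sham array 8 (10.22) than in sham arrays 6 and 7 (10.73 and 10.70), and read 10.01, 10.02 and 10.13 in SAH arrays 1, 4 and 5. Those most like Jam3 were Lsr (0.94), Icam2 (0.92) and Cd34 (0.92), all without overlap between the groups. These correlations run over only 6 arrays and carry the group difference, and no test is given.

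**Figure D4:**
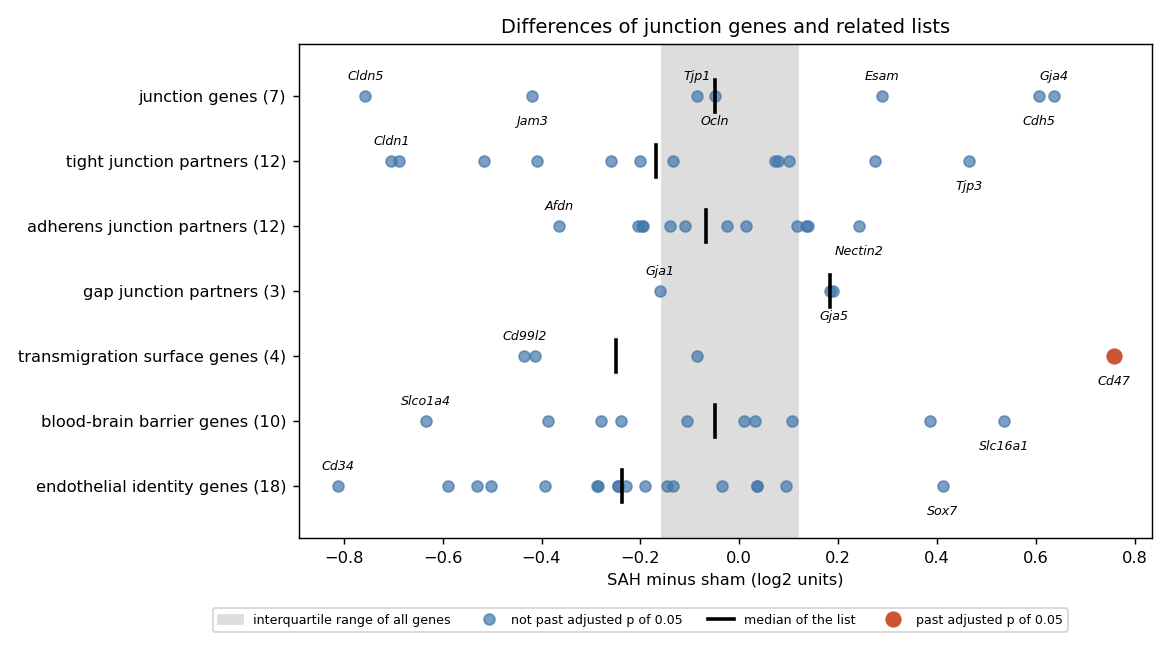
Log2 difference, SAH minus sham, of every measured gene of the junction genes and of 6 related lists (points), with the median of each list (black bars) and the interquartile range of all 18166 genes (grey band). Cd47 is the only gene shown past an adjusted p of 0.05, and the junction genes spread from -0.76 for Cldn5 to 0.64 for Gja4.

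The blood-brain barrier rests on transporters of brain endothelium as well as on its tight junctions. The barrier list held 10 measured genes, of which 7 encode transporters and the others are Lef1, a transcription factor of Wnt signalling, Tfrc, the transferrin receptor, and Plvap. None of the 10 passed, 5 differences were above 0 and 5 below, and the median difference was -0.05. With an unadjusted p under 0.05, 2 were higher (8.16% of all genes) and 1 lower (10.5%). Slc7a5, a carrier of large neutral amino acids, read 11.95, 11.89 and 12.10 in the sham arrays and 12.36, 12.36 and 12.38 in the SAH arrays (0.39 ± 0.10 SE; limma adjusted p = 0.150). Slco1a4, an organic anion transporter, differed by -0.63 ± 0.20 (adjusted p = 0.222) and Slc16a1, the monocarboxylate transporter MCT1, by 0.54 ± 0.19 (adjusted p = 0.257). All 3 had groups without overlap and were the only ones of the 10 to do so, where 26.8% of all genes did. Slc2a1, the glucose transporter GLUT1, differed by -0.24 ± 0.16, and Plvap, a protein of fenestrated endothelium that barrier vessels lack, by 0.11 ± 0.12. It lay near or below the array medians, at 6.97 to 7.38.

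**Figure D5:**
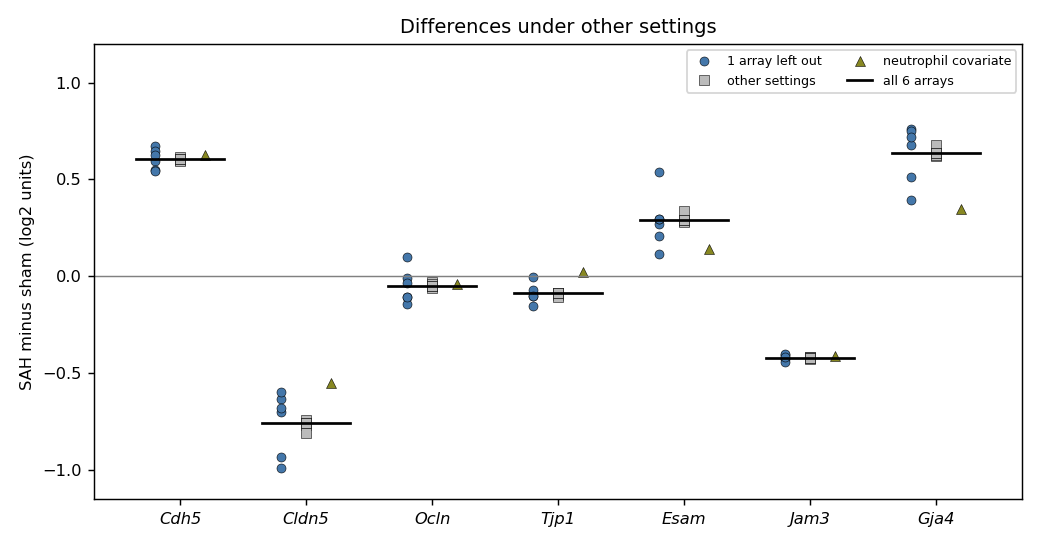
Log2 difference, SAH minus sham, of each junction gene with all 6 arrays and default settings (black bars), with 1 array left out (circles), under the other settings (squares) and with a neutrophil covariate (triangles). Cdh5 and Jam3 hardly move, while Cldn5, Esam and Gja4 shift with single arrays and with the covariate, and Ocln and Tjp1 each cross 0 once.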

How the data were processed

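The authors deposited log2 expression values, 1 per probe set and array. Per the submitters' processing notes they were made with Affymetrix Expression Console 1.1.2 and RMA, which corrects background, normalizes between arrays and summarises probes; no source used here gives its settings or the genome build. A general change in RNA amount cannot be seen after RMA. Precision is limited by there being 3 arrays per group. Values of different probe sets are not compared as levels.

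After 190 control probe sets were set aside, 36495 were fitted in R 4.3.3 by limma 3.58.1 (lmFit, then eBayes; SAH against sham; two-sided tests), and p-values were adjusted by Benjamini-Hochberg across all of them. A gene was called at an adjusted p under 0.05. Folds were computed from differences of mean log2 values. GEO's platform annotation, with symbols updated through RefSeq's GRCr8 gene table, named 1 gene for 18511 probe sets, several for 575 and none here for 17409. The fit was tested on simulated data.

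The junction genes and the partner and marker lists were chosen with earlier results of these data known. All junction genes are named, and from each related list called genes and the 3 with the smallest p, plus the 3 endothelial identity genes with the brightest probe sets, which sets what is named and compares no levels. Other genes named were chosen after their values were seen. Alternatives were a filter on dim probe sets, repeated quantile normalization, subtracted array medians, trend and robust eBayes, array weights, other thresholds, the mean of a gene's probe sets, each array left out and, added after seeing the data, a neutrophil marker covariate and a smooth muscle mean without Smtn.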

Additional observations from a re-analysis of the deposited data

How the results depend on the processing

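No paired analysis was run, because the labels give no pairing of SAH with sham arrays. No junction gene passed with all 6 arrays and default settings, where 1.29% of all genes did. With dim probe sets left out 2 passed (Cdh5 and Jam3), where 5.93% of the genes then tested did. With trend and robust eBayes 1 passed (Cdh5; 2% of genes), and at an adjusted p under 0.10 also 1 (Cdh5; 2.92% of genes). Leaving out dim probe sets means that fewer are tested, 18544 in place of 36495. Probe sets called over the whole array numbered 295 with all 6 arrays and default settings, 853 with dim probe sets left out, 458 with trend and robust eBayes, 479 with array weights, 716 at an adjusted p under 0.10, 30 with the neutrophil covariate, and 41 to 929 with each array left out. The endothelial identity list gained 1 call (Cd34) with dim probe sets left out and at an adjusted p under 0.10. The call of Cd47 made the transmigration list's count 1, and it was 0 with a minimum log2 difference of 1 and 0 to 1 with arrays left out. Junction genes without overlap numbered 3 to 5 with an array left out (32.9% to 43.2% of all genes) and 5 without sham array 8 (38.8% of all genes), and their median difference ran from -0.11 to 0.10. The difference of Ocln changed sign without SAH array 1 and ran from -0.14 to 0.10 with each array left out, and that of Tjp1 changed sign with the neutrophil covariate, at 0.021. The cause of these changes was not tested. The tight, adherens and gap junction and barrier lists had 0 calls under all settings run on them. Groups of 3 arrays are too small for a test of outlying samples.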

Other observations

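Markers of arterial endothelium differed in both directions: of 7 measured none passed, 5 had groups without overlap (26.8% of all genes), 2 higher and 3 lower after SAH, and the median difference was 0.05. Unc5b, a netrin receptor of arterial endothelium, read 8.47, 8.47 and 8.94 in the sham arrays and 9.01, 9.31 and 9.60 in the SAH arrays (0.68 ± 0.19 SE; limma adjusted p = 0.189), and the Notch ligand gene Dll4 read 8.54 to 8.70 and 8.76 to 9.47. Hey1, a target of Notch signalling, differed by -0.40 ± 0.15 and Sema3g, a semaphorin of arterial endothelium, by -0.40 ± 0.13. These genes were chosen after their values were seen. All 3 measured venous markers were below 0 (median -0.32), and the 4 lymphatic markers had a median of 0.01.

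The medians of the other marker lists were -0.06 for pericytes, -0.22 for leptomeningeal fibroblasts, -0.23 for smooth muscle (1 of 6 lower, Smtn), -0.27 for arachnoid barrier cells, -0.15 for choroid plexus, -0.41 for astrocytes, 0.02 for neurons, 0.28 for myelinating cells, 0.09 for platelets, 1.71 for neutrophils, -0.01 for monocytes and macrophages, 0.19 for lymphocytes and 0.34 for erythroid cells, with no other gene of these lists called.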
